A study of Homo sapiens with 6 samples.

Results

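A set of 35 genes that work in mitosis, DNA replication and DNA repair was followed across 6 libraries of cultures labelled PC3, a human prostate carcinoma line that was derived from a metastasis in bone. The genes were taken by name, with earlier results of these data known. Of the 35, 32 had a row among the 770 probes, 10 for mitosis, 7 for replication, nucleotides and chromatin, 14 for DNA repair, and MYC, and BUB1, NUF2 and ORC6 are not analysed here. All 32 stood above the minimum set for testing, as did 669 of the 770 probes in all. The nCounter PanCancer IO 360 panel reads target RNA molecules by hybridised fluorescent barcodes, without an amplification step.

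The cells carried an empty vector (EV) or a vector for BTN1A1, a membrane protein of the butyrophilin family, and were grown in DMEM/F12 with serum. In each of these 2 sets 1 library came from untreated cells, whose label reads 48 h, 1 from cells given 100 ng/ml interferon-gamma for 24 h, and 1 from cells given it for 48 h. Each of the 6 groups is thus 1 library. A comparison of the 24 h library with the untreated library compares culture times as well, and treatment and time cannot be told apart in it. No row used here is named BTN1A1, so the level of the introduced gene is not analysed here, and the labels do not say whether the transfectants were clones or pools.

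Cells that divide switch on their mitosis and replication genes in order. Genes of DNA synthesis and of repair by recombination are transcribed from the end of G1 into S phase, largely through E2F factors. Genes of the spindle, of chromosome segregation and of cell division follow in G2 and mitosis, largely through the MuvB complex with B-MYB and FOXM1, which acts at the CHR element and at CCAAT boxes that bind NF-Y. In bulk RNA their levels therefore follow how many cells are in each phase, and fewer cells of a kind and less RNA per cell cannot be told apart. Interferon-gamma, a cytokine that T and NK cells secrete, is known to slow the division of many cell types.

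Total counts ran from 221633 to 441611 per library, and the members' own counts from 66 to 4695. All values below are scaled counts, that is counts divided by a library factor from the geometric mean of 20 housekeeping genes, which ran from 407 to 586. TFRC, the transferrin receptor, is among those 20 and did not hold level. Its scaled counts were 2641, 2300 and 1437 in the EV libraries and 490, 1430 and 435 in those labelled BTN1A1, in the order untreated, then 24 h, then 48 h, which is kept for every gene below. Markers of immune cells (T, NK, B, myeloid) lay near the low end of the counts, with 42 of 45 markers measured, sums of 846 to 1165 per library and medians of 16 to 23.5. The PC3 line is known to lack STAT3. Its counts were 20, 10 and 17 in the EV libraries against 383, 593 and 444 in the others. Those values go against the label of the second set, which is therefore called the libraries labelled BTN1A1, and a difference between the sets cannot be read as an effect of BTN1A1.

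The promoters of 6 members are given first. The CHR element, the CCAAT box and the E2F site are elements through which genes of these roles are known to be timed. Any link between these letters and the 24 h values was not tested. Among members with a promoter entry, the 6 were picked by the height of the 24 h library. This is its log2 value minus the mean log2 of the untreated and 48 h libraries, fitted over both vectors. They are the 3 mitosis genes with the greatest height (MKI67, CDC20 and ANLN) and the replication gene with the greatest (HMGB1). The others are the replication and repair genes with the lowest (POLD1 and ATM). HMGB1 had a height of 1.29 in the libraries labelled BTN1A1 and of 0.12 in EV. Each promoter runs 5′ to 3′ on the gene's own strand over 250 bases before and 50 after the start, from RefSeq on build GRCh38.p14. Capitals mark the letters TTTGAA (the CHR element), CCAAT (the CCAAT box) and TTTNNCGC (an E2F site), searched on both strands, so that TTCAAA and ATTGG are matches to the reverse strand.
MKI67 promoter, chr10:128126374-128126673 (minus strand): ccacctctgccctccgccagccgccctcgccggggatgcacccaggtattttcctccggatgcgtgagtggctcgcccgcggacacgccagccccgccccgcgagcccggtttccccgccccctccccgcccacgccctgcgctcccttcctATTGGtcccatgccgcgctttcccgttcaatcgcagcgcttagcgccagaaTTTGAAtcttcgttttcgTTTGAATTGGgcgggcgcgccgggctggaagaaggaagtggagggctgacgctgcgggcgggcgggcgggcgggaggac
CDC20 promoter, chr1:43358731-43359030 (plus strand): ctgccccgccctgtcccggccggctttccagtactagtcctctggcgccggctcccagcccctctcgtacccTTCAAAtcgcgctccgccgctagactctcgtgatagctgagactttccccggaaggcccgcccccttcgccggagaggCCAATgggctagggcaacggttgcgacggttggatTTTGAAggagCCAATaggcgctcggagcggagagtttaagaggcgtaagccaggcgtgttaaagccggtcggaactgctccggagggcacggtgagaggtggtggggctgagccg
ANLN promoter, chr7:36389612-36389911 (plus strand): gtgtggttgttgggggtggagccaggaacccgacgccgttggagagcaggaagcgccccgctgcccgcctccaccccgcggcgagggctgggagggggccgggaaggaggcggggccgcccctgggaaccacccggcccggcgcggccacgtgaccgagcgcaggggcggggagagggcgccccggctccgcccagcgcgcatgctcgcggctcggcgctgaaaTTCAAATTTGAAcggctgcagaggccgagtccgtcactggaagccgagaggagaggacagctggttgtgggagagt
HMGB1 promoter, chr13:30465887-30466186 (minus strand): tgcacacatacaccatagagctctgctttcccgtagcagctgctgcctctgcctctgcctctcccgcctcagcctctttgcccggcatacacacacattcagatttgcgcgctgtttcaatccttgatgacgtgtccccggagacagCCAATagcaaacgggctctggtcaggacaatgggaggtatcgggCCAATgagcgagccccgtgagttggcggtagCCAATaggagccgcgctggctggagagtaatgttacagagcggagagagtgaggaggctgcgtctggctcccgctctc
POLD1 promoter, chr19:50384073-50384372 (plus strand): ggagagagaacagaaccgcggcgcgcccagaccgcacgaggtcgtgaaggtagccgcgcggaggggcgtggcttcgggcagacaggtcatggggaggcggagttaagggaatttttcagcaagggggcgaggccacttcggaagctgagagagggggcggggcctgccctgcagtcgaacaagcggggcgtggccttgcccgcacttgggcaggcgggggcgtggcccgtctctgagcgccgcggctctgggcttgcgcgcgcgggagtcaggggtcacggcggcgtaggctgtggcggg
ATM promoter, chr11:108222817-108223116 (plus strand): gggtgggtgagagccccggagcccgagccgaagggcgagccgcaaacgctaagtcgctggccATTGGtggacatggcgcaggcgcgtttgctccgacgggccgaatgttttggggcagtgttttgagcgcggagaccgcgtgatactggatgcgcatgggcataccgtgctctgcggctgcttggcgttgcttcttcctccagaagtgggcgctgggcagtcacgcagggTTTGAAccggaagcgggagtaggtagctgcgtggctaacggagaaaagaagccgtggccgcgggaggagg
MKI67, whose product Ki-67 coats mitotic chromosomes, held 2 CHR matches from -47 and from -29 and 2 CCAAT matches, the nearer of which shares 1 base with a CHR match. CDC20, the activator of the anaphase-promoting complex, also held 2 of each. ANLN, the anillin scaffold of the cleavage furrow, held 2 CHR matches side by side, on opposite strands, and none of the other kinds. HMGB1, a chromatin protein that bends DNA, held 3 CCAAT matches and no other. The ATM promoter held 1 CHR and 1 CCAAT match, and the POLD1 window held none of these letters. A match describes the letters and is neither a bound site nor a cause of any level.

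Of the 32 measured members, 28 had a promoter entry, and BIRC5, UBE2C, NBN and MYC had none. The CHR letters stood in 9 of the 28, against 15.2% of the 35116 promoters in the table. The 9 were 5 of the 8 mitosis promoters, 4 of the 13 repair promoters and 0 of the 7 replication promoters. The E2F letters stood in 8 of the 28, against 6.89% of the table, in 4 replication promoters (TYMS, HELLS, EZH2 and DNMT1), 4 repair promoters (FANCA, EXO1, MSH6 and PMS2) and 0 of the 8 mitosis promoters. The CCAAT letters stood in 16 of the 28, against 34.6% of the table, spread over all these roles.

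Under the housekeeping scaling most members were highest at 24 h in the EV libraries, and in the libraries labelled BTN1A1 the mitosis genes were mostly highest there while the repair genes were mostly lowest. The 24 h library was the highest of the 3 EV libraries for 20 of 32 members, against 18.7% of all genes tested, and the lowest for 4, against 38.6%. Such shares describe the pattern and do not test it, since the members and the pattern were known from earlier results of these data. In the libraries labelled BTN1A1 it was the highest for 13, against 16.6% of all genes, and the lowest for 18, against 47.1%. By role, the 24 h library was highest in EV for 9 of 10 mitosis genes, 4 of 7 replication genes and 7 of 14 repair genes. In the libraries labelled BTN1A1 it was highest for 7 of 10, 3 of 7 and 3 of 14, and lowest for 11 of the 14 repair genes. That last count rests on the scaling, as given below.

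The heights were modest. The 24 h library stood at least 1.2-fold above both others for 16 members in EV, against 8.67% of all genes, and for 8 in the libraries labelled BTN1A1, against 7.17%. The height of the 24 h library, taken as its log2 scaled count minus the mean log2 of the untreated and 48 h libraries, had a median of 0.33 over the members in EV, against -0.08 over all genes tested. Among the libraries labelled BTN1A1 the median was -0.12 for the members and -0.19 for all genes under the housekeeping scaling, and the members' sign changed with the scaling. By role, under the housekeeping scaling, the medians were 0.40 and 0.26 for mitosis, 0.30 and -0.04 for replication and 0.30 and -0.30 for repair, each time EV first.

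Scaling bears on these heights and counts. In the libraries labelled BTN1A1 the members' median height was 0.06 under TMM scaling, against -0.06 over all genes. It was 0.15 under DESeq2 size factors, against 0, and -0.06 under column totals, against -0.18. Under TMM scaling the 24 h library was highest for 24 members in EV, against 30.0% of all genes, and under column totals for 10, against 11.1%. For the set labelled BTN1A1 the count of members highest at 24 h stayed between 13 and 15, while the share over all genes ran from 16.6% to 32.9%. The count lowest at 24 h in that set was 9 under TMM, against 38.3% of all genes, 2 under DESeq2 size factors, against 30.3%, and 16 under column totals, against 47.1%. Of the 14 repair genes, 6 were lowest there under TMM, 2 under DESeq2 size factors and 11 under column totals, against the same shares. Under all 5 scalings tried, 9 members were highest at 24 h in EV and 13 in the libraries labelled BTN1A1. CEP55, MELK, MKI67, RRM2 and UBE2C were in both of these lists. NBN, nearly level in the set labelled BTN1A1, was among the 13. The share of all genes highest under all 5 scalings was not computed. It cannot exceed the lowest share under a single scaling, 11.1% in EV and 16.6% in the set labelled BTN1A1.

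**Figure D1:**
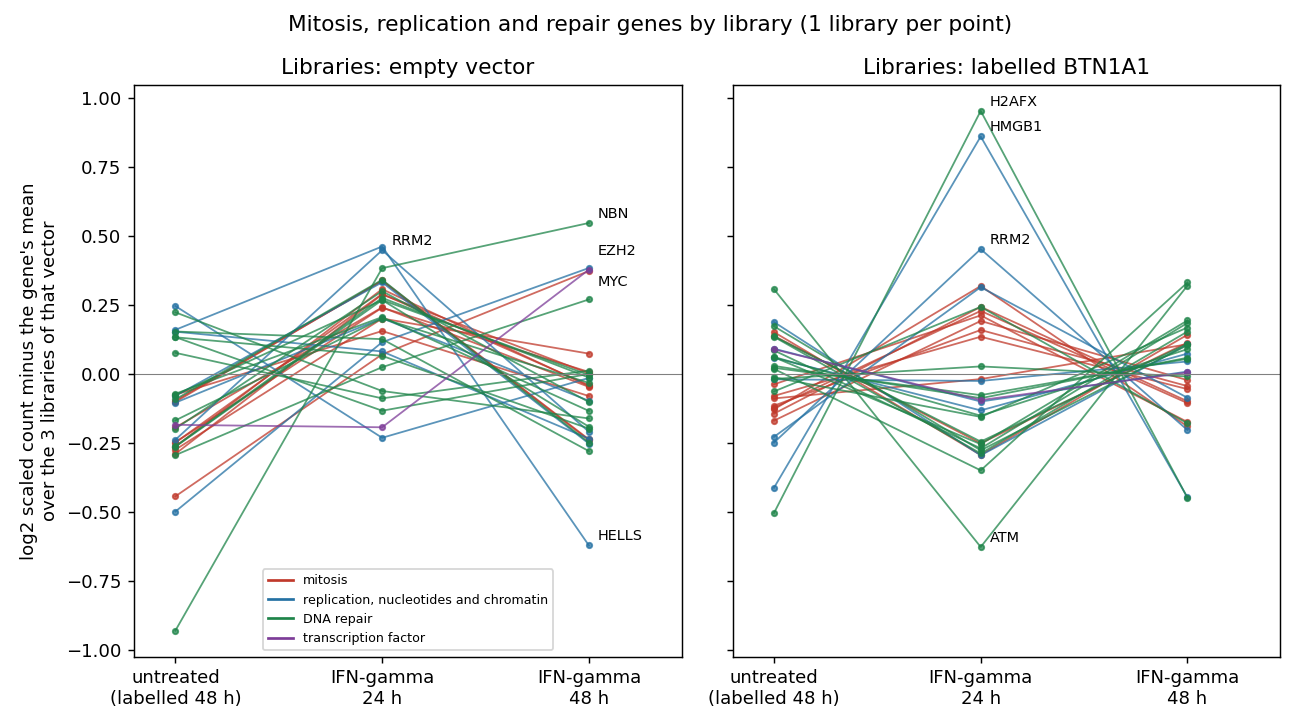
Log2 scaled count of each of the 32 members minus its mean over the 3 libraries of that vector (vertical axis), by condition (horizontal axis), for EV (left) and for the libraries labelled BTN1A1 (right). Each line is 1 gene, each point 1 library, and colours mark roles. Under this housekeeping scaling most lines on the left lie above 0 at 24 h, while on the right the mitosis genes lie mostly above it and the repair genes mostly below, with H2AFX and HMGB1 highest and ATM lowest.

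The mitosis genes came nearest to a shared course. MKI67 had scaled counts of 867, 1259 and 1001 in EV and of 711, 969 and 681 in the libraries labelled BTN1A1. CDC20 had 492, 664 and 445 in EV and 388, 508 and 401 in the others. UBE2C, the ubiquitin-conjugating enzyme that works with the anaphase-promoting complex, had 1219, 1809 and 1418 in EV and 931, 1195 and 1030 in the others. For all 3 genes the 24 h library was the highest of its vector in both sets, and the untreated and 48 h libraries lay closer to each other than to it. The ratio of 24 h to untreated for MKI67 was 1.45 in EV (95% counting interval 1.33 to 1.59) and 1.36 in the libraries labelled BTN1A1 (1.243 to 1.494). These intervals are exact binomial ones on the counts of 2 libraries, and here as elsewhere cover counting error only.

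ANLN had scaled counts of 1303, 1767 and 1186 in EV and of 601, 697 and 611 in the libraries labelled BTN1A1. BIRC5, which encodes survivin of the chromosomal passenger complex, had 2580, 3028 and 2572 in EV and 1143, 1457 and 1156 in the others. Both were highest at 24 h in each set, and both had their 3 EV libraries above all 3 of the other set. CEP55, a midbody protein of abscission, had 411, 576 and 490 in EV and 343, 407 and 312 in the others. MELK, a kinase most expressed in dividing cells, had 535, 744 and 681 in EV and 529, 639 and 555 in the others, so that the 48 h library in EV lay near the 24 h library.

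The other 3 mitosis genes left the pattern in the libraries labelled BTN1A1. KIF2C, a kinesin that depolymerises microtubules at kinetochores, had 314, 469 and 385 in EV, highest at 24 h, and 405, 297 and 402 in the others, lowest at 24 h. Its ratio of 24 h to untreated was 1.49 in EV (counting interval 1.29 to 1.73) and 0.735 in the libraries labelled BTN1A1 (0.637 to 0.847). CENPF, a large kinetochore protein, had 626, 847 and 694 in EV and 748, 785 and 857 in the others, where 48 h was highest. CDC25C, the phosphatase that activates CDK1 at entry into mitosis, was not highest at 24 h in either set, with 125, 179 and 221 in EV and 224, 171 and 220 in the others.

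Among the replication genes RRM2 and TYMS, which supply deoxynucleotides, stood highest at 24 h in both sets. RRM2, the small subunit of ribonucleotide reductase, had scaled counts of 2503, 4027 and 2553 in EV and of 2204, 3581 and 2274 in the libraries labelled BTN1A1. The untreated and 48 h libraries almost coincided in each set, and the 24 h library stood above both. The ratio of 24 h to untreated was 1.61 in EV (counting interval 1.53 to 1.69) and 1.62 in the others (1.55 to 1.71), and that of 48 h to untreated was 1.02 (0.963 to 1.081) and 1.03 (0.971 to 1.097). TYMS, thymidylate synthase, had 3278, 4359 and 2908 in EV and 1176, 1712 and 1297 in the others, again highest at 24 h in each.

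The chromatin and polymerase genes did not share this course. HELLS, a chromatin remodeller needed for DNA methylation, had 358, 441 and 208 in EV and 969, 849 and 915 in the libraries labelled BTN1A1. In EV it was highest at 24 h and lowest at 48 h, with a ratio of 48 h to untreated of 0.582 (counting interval 0.484 to 0.699), and in the other set it was lowest at 24 h. DNMT1, the maintenance DNA methyltransferase, had 1169, 1445 and 1174 in EV and 996, 873 and 1007 in the others, highest at 24 h in the first and lowest in the second. EZH2, the methyltransferase of Polycomb repressive complex 2, had 452, 692 and 833 in EV and 979, 975 and 1024 in the others. In EV it was lowest untreated and highest at 48 h, and in the other set it was nearly level. POLD1, the catalytic subunit of DNA polymerase delta, was lowest at 24 h in both, with 158, 113 and 132 in EV and 218, 156 and 207 in the others.

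HMGB1 had scaled counts of 132, 125 and 101 in EV and of 84, 202 and 82 in the libraries labelled BTN1A1. The 24 h library labelled BTN1A1 stood at 2.41 times the untreated one (counting interval 1.89 to 3.10), while in EV the same ratio was 0.952 (0.741 to 1.22). In that same library TFRC also stood above its untreated library, and the part of the library itself in these values was not tested.

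**Figure D2:**
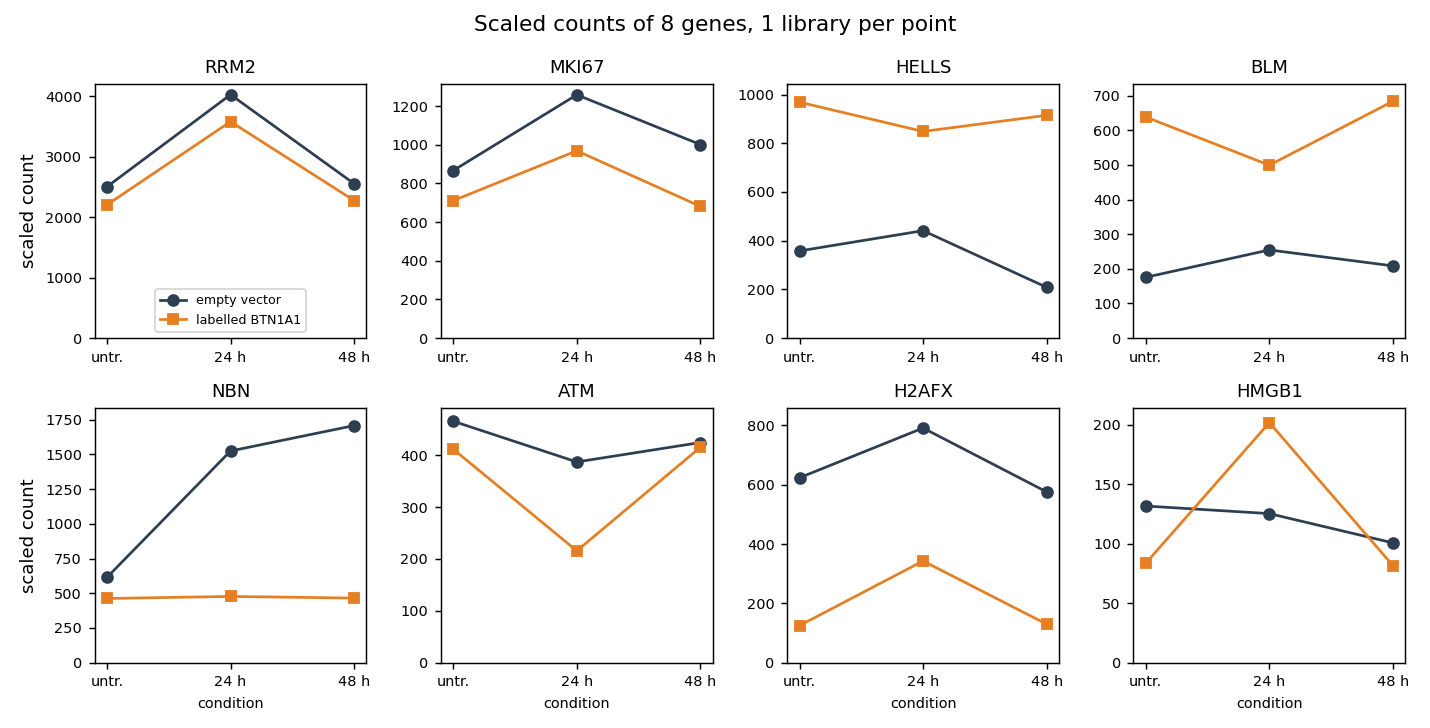
Scaled counts (vertical axis, from 0) of 8 members in the untreated, 24 h and 48 h libraries (horizontal axis) of EV (circles) and of the set labelled BTN1A1 (squares), with 1 library per point and no error bars because no group has a replicate. RRM2 and MKI67 peak at 24 h in both sets, HELLS and BLM are highest at 24 h in EV and lowest there in the other set under this housekeeping scaling, and NBN stays between 462 and 477 in the set labelled BTN1A1.

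Of the 14 repair genes, 6 were highest at 24 h in EV and lowest there in the other set. BRCA1, which starts repair by homologous recombination, had scaled counts of 244, 315 and 268 in EV and of 529, 410 and 657 in the libraries labelled BTN1A1. BRCA2, a mediator of homologous recombination, had 159, 229 and 190 in EV and 417, 360 and 425 in the others. BLM, the Bloom syndrome helicase, had 175, 254 and 208 in EV and 638, 499 and 684 in the others. For all 3 the 24 h library was the highest in EV and the lowest in the other set, and the sets did not overlap, since each library labelled BTN1A1 stood above each EV library. For BLM the ratio of 24 h to untreated was 1.45 in EV (counting interval 1.19 to 1.77) and 0.782 in the others (0.700 to 0.874).

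EXO1, an exonuclease of mismatch repair and of resection, had 255, 344 and 229 in EV and 815, 656 and 894 in the libraries labelled BTN1A1. MSH6, which recognises mismatches in newly made DNA, had 149, 181 and 143 in EV and 282, 260 and 288 in the others. BRIP1, a helicase that binds BRCA1, had 431, 609 and 461 in EV and 393, 367 and 402 in the others. These genes too were highest at 24 h in EV and lowest there in the other set, but BRIP1 differed in level from them, lying lower in the libraries labelled BTN1A1. In all, 9 members were highest at 24 h in EV and lowest at 24 h in the other set (KIF2C, HELLS, DNMT1, BRCA1, BRCA2, BLM, BRIP1, EXO1 and MSH6), against 7.62% of all genes tested. That count rests on the scaling, with 5 members under TMM, against 9.57%, 4 under column totals, against 4.93%, and BRCA1 alone under DESeq2 size factors, against 7.03%. Highest in both were 10 members, against 5.98%, namely ANLN, BIRC5, CDC20, CEP55, MELK, MKI67, UBE2C, RRM2, TYMS and H2AFX, with 12 under TMM, against 10.5%, and 6 under column totals, against 2.54%.

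FANCA, of the Fanconi anaemia core complex, had 151, 149 and 112 in EV and 389, 299 and 382 in the libraries labelled BTN1A1. UBE2T, the ubiquitin-conjugating enzyme of that pathway, had 141, 135 and 112 in EV and 189, 171 and 214 in the others. In EV both were lowest at 48 h with little between untreated and 24 h, and in the other set both were lowest at 24 h. PMS2, an endonuclease of mismatch repair, was lowest at 24 h in each set, with 296, 264 and 283 in EV and 393, 288 and 375 in the others. RAD51C, which acts in homologous recombination, had 312, 256 and 239 in EV and 205, 253 and 189 in the others, where it was highest at 24 h.

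The kinase ATM and the subunits of the MRN complex that brings it to DNA breaks took courses of their own. ATM had 466, 387 and 425 in EV and 412, 216 and 416 in the libraries labelled BTN1A1, with 24 h the lowest in both. Its ratio of 24 h to untreated was 0.831 in EV (counting interval 0.726 to 0.952) and 0.524 in the others (0.447 to 0.612). RAD50 had 174, 217 and 258 in EV and 792, 591 and 803 in the others. In EV it was lowest untreated and highest at 48 h. In the other set it was lowest at 24 h, and each of that set's libraries stood above all EV libraries. NBN, the nibrin subunit, had 614, 1524 and 1708 in EV and 462, 477 and 465 in the libraries labelled BTN1A1. Both treated EV libraries thus stood above the untreated one, at 2.48 times (2.26 to 2.73) and 2.78 times (2.53 to 3.06), while in the other set the 3 libraries were nearly level.

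H2AFX, now named H2AX, encodes the histone that ATM phosphorylates around breaks. Its scaled counts were 623, 791 and 576 in EV and 125, 343 and 130 in the set labelled BTN1A1. The highest library was that at 24 h in both sets, and all 3 libraries labelled BTN1A1 lay below all EV libraries. The ratio of 24 h to untreated was 1.27 in EV (counting interval 1.14 to 1.41) and 2.74 in the others (2.26 to 3.35). In that same 24 h library labelled BTN1A1 the housekeeping gene TFRC stood at 1430, against 490 untreated. The part of the library itself in these values was not tested. MYC, a transcription factor that drives growth, had 913, 907 and 1347 in EV and 1999, 1759 and 1886 in the others, lowest at 24 h in both.

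With at least 1.5-fold as the threshold between 2 libraries, which is no test, between 0 and 3 members stood out in each direction under the housekeeping scaling. In EV at 24 h against untreated, 3 were higher (RRM2, EZH2 and NBN), against 17.9% of all genes, and none lower, against 19.7%. Under TMM 17 were higher in this comparison, against 22.9%, under DESeq2 size factors 18, against 23.5%, and under column totals 1, against 12%. In EV at 24 h against 48 h, 3 were higher (RRM2, HELLS and EXO1), against 4.93%, and none lower, against 17.3%, and 7 were higher under TMM, against 7.92%. With the set labelled BTN1A1, RRM2, HMGB1 and H2AFX were higher at 24 h than in the untreated library, against 6.43%, and than at 48 h, against 2.99%, where 9 were higher under TMM, against 9.42%, and 12 under DESeq2 size factors, against 12.6%. In that set ATM was lower at 24 h than untreated, against 11.5%, and ATM and BRCA1 lower than at 48 h, against 29.6%, with 0 lower under TMM, against 10.0%.

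At the matched labelled time of 48 h, the treated and untreated libraries labelled BTN1A1 lay close for every member, with log2 differences from -0.14 to 0.31. There 0 of 32 were at least 1.5-fold higher, against 18.1% of all genes, and 0 lower, against 0.149%. In EV CDC25C, EZH2 and NBN were higher at 48 h than untreated, against 20.5%, and HELLS was lower, against 16.6%. Under column totals 1 was higher there, against 13.5%, and 17 lower, against 50.5%, and under TMM 5 were higher, against 21.1%.

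No member passed edgeR's quasi-likelihood test (Benjamini-Hochberg adjusted p under 0.05 over 669 genes) for the height of the 24 h library, and no gene of the 669 did so either. In this test the untreated and 48 h libraries of a vector stand as 2 samples not at 24 h, and its p-values measure only the spread between these libraries. DESeq2 and limma were run beside it, and the share of all genes that they called is not given, here or below. In EV 1 member, RRM2, had an unadjusted p under 0.05, against 2.99% of all genes, with a log2 height of 0.67 (SE 0.18, adjusted p = 0.854 with edgeR). In the libraries labelled BTN1A1, 4 members had one, against 5.68%. H2AFX had a log2 height of 1.43 (SE 0.22), HMGB1 of 1.29 (SE 0.31), RRM2 of 0.68 (SE 0.18) and ATM of -0.94 (SE 0.23), each with an adjusted p of 0.673 with edgeR. DESeq2 called RRM2 in EV (adjusted p = 0.0413) and RRM2, H2AFX and ATM in the other set, while limma called 0 members in each.

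Fitted over both vectors at once, the height at 24 h again gave 0 members past edgeR's threshold, with H2AFX and RRM2 at an unadjusted p under 0.05, against 6.28% of all genes. RRM2 had a log2 height of 0.67 (SE 0.23, adjusted p = 0.719 with edgeR), and DESeq2 called it with an adjusted p of 0.00198, while limma called 0. The 24 h libraries against the untreated ones (8.67% of all genes at an unadjusted p under 0.05), and against the 48 h ones (5.83%), gave 0 members by edgeR with H2AFX and RRM2 at an unadjusted p under 0.05, RRM2 alone by DESeq2, and 0 by limma. For 48 h against untreated all 3 tools called 0 members and 0 had an unadjusted p under 0.05, against 9.42% of all genes by edgeR, while 6 of the 669 genes, 0.897%, passed edgeR as higher. On simulated data with 680 genes the fit over both vectors recovered 40.4% of 2-fold and 94.7% of 4-fold changes. That within EV alone (681 genes) recovered 5.26% and 26%. Every simulated gene had the common dispersion of its model, so at that spread the EV test would miss most 2-fold heights. Recovery at the members' own spread was not tested.

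Whether a member's height at 24 h differed between the sets was tested as an interaction. By edgeR 0 of 32 passed, with H2AFX alone at an unadjusted p under 0.05, against 2.99% of all genes, and DESeq2 and limma also called 0. H2AFX had a difference in log2 height of 1.03 (SE 0.32, adjusted p = 0.998 with edgeR), higher in the libraries labelled BTN1A1. The fitted height of 25 of the 32 members was lower in the set labelled BTN1A1 and that of 7 was higher, where 294 of all 669 genes were higher. The median difference was -0.31 on the log2 scale, against -0.10 over all genes. On simulated data this test recovered 0% of 2-fold and 3.03% of 4-fold differences. The opposite order of BRCA1, BLM or EXO1 at 24 h in the 2 sets is therefore given as values. Across the 32 members the heights in the 2 sets correlated with r = 0.33 (Spearman's rho 0.38), and across all 669 genes with r = 0.21, where genes share the same 6 libraries and are not independent.

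**Figure D3:**
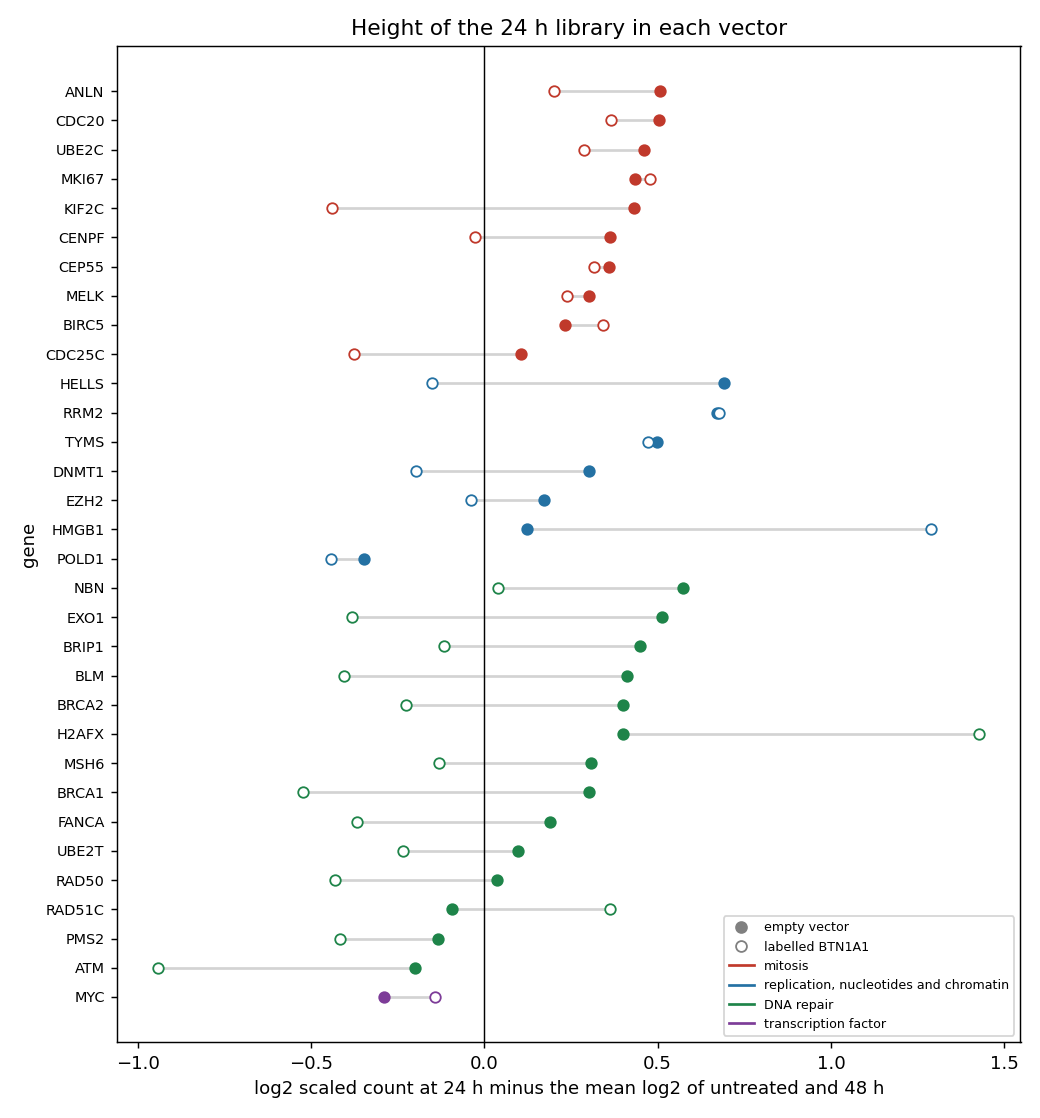
Height of the 24 h library for each of the 32 members (vertical axis), as its log2 scaled count minus the mean log2 of the untreated and 48 h libraries (horizontal axis), in EV (filled) and in the libraries labelled BTN1A1 (open), with a grey line joining the 2 values of a gene and colours for roles. RRM2, TYMS, MKI67 and CEP55 have nearly the same height in both sets, most repair genes lie above 0 in EV and below 0 in the other set under this housekeeping scaling, and H2AFX at 1.43 and HMGB1 at 1.29 lie farthest right.

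Many genes of the panel, members among them, differed in level between the sets. By edgeR, fitted with condition as a second term, 14 of 32 members passed. Of these 9 were higher in the libraries labelled BTN1A1, against 11.7% of all genes, and 5 lower, against 30.6%. The same 14 had an unadjusted p under 0.05, against 48.6%, so the number that differed does not set the members apart. In this test the libraries of a set, each under another condition, stand as its samples. Its p-values measure only how the difference varied across conditions, and not the spread between replicate cultures. Repair genes made up 7 of the 9 higher members. RAD50 had a log2 difference of 1.75 (SE 0.29, adjusted p = 0.00184 with edgeR), and the difference in its single pairs was 2.18 untreated, 1.44 at 24 h and 1.64 at 48 h. EXO1 differed by 1.52 (SE 0.31, adjusted p = 0.00496 with edgeR) and BLM by 1.52 (SE 0.30, adjusted p = 0.00443). FANCA differed by 1.38 (SE 0.29), BRCA2 by 1.07 (SE 0.28), BRCA1 by 0.93 (SE 0.30) and MSH6 by 0.82 (SE 0.27), with edgeR adjusted p from 0.00567 to 0.0440. HELLS, at 1.502 (SE 0.32, adjusted p = 0.00606 with edgeR), and MYC, at 0.86 (SE 0.26, adjusted p = 0.0308), were the others that were higher.

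The 5 lower members held the histone gene and genes of nucleotide supply, mitosis and the MRN complex. H2AFX differed by -1.89 (SE 0.32, adjusted p = 0.00229 with edgeR), and its single pairs by -2.32 untreated, -1.21 at 24 h and -2.15 at 48 h. TYMS differed by -1.33 (SE 0.24, adjusted p = 0.00282 with edgeR), ANLN by -1.14 (SE 0.26, adjusted p = 0.00793) and BIRC5 by -1.13 (SE 0.24, adjusted p = 0.00600). NBN differed by -1.33 (SE 0.35, adjusted p = 0.0164 with edgeR), and its pairs by -0.41 untreated, -1.68 at 24 h and -1.88 at 48 h, so that most of its difference lay in the treated libraries. The other 18 members lay between -0.48 (UBE2C) and 0.63 (EZH2), with edgeR adjusted p from 0.111 to 0.877.

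Compared condition by condition, 13 members were higher in the libraries labelled BTN1A1 at all 3, against 20.2% of all genes, and 15 lower, against 42.2%. All 3 libraries of that set lay above all 3 EV libraries for 11 members, against 16.6%, and below them for 9, against 33.5%. BLM, H2AFX and RAD50 stayed past the threshold under all 15 other settings. EXO1 and TYMS did so under 14, BRCA2, FANCA and HELLS under 13, BRCA1 under 12, and ANLN, BIRC5 and MYC under 11. NBN did so under 9 and MSH6 under 7. ANLN, BIRC5 and NBN did not pass under TMM, DESeq2 size factors or column totals, and the split of 9 higher and 5 lower became 11 and 2 under TMM and 12 and 1 under column totals. Without the EV 48 h library 3 were higher, and without the 48 h library labelled BTN1A1 2 were higher and 2 lower. The median difference over all genes tested was -0.25 under the housekeeping scaling, 0.00 under TMM and 0.11 under column totals, so signs are relative to the scaling. The share of all genes that passed under these other settings is not given, so the counts that passed there describe the members only.

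**Figure D4:**
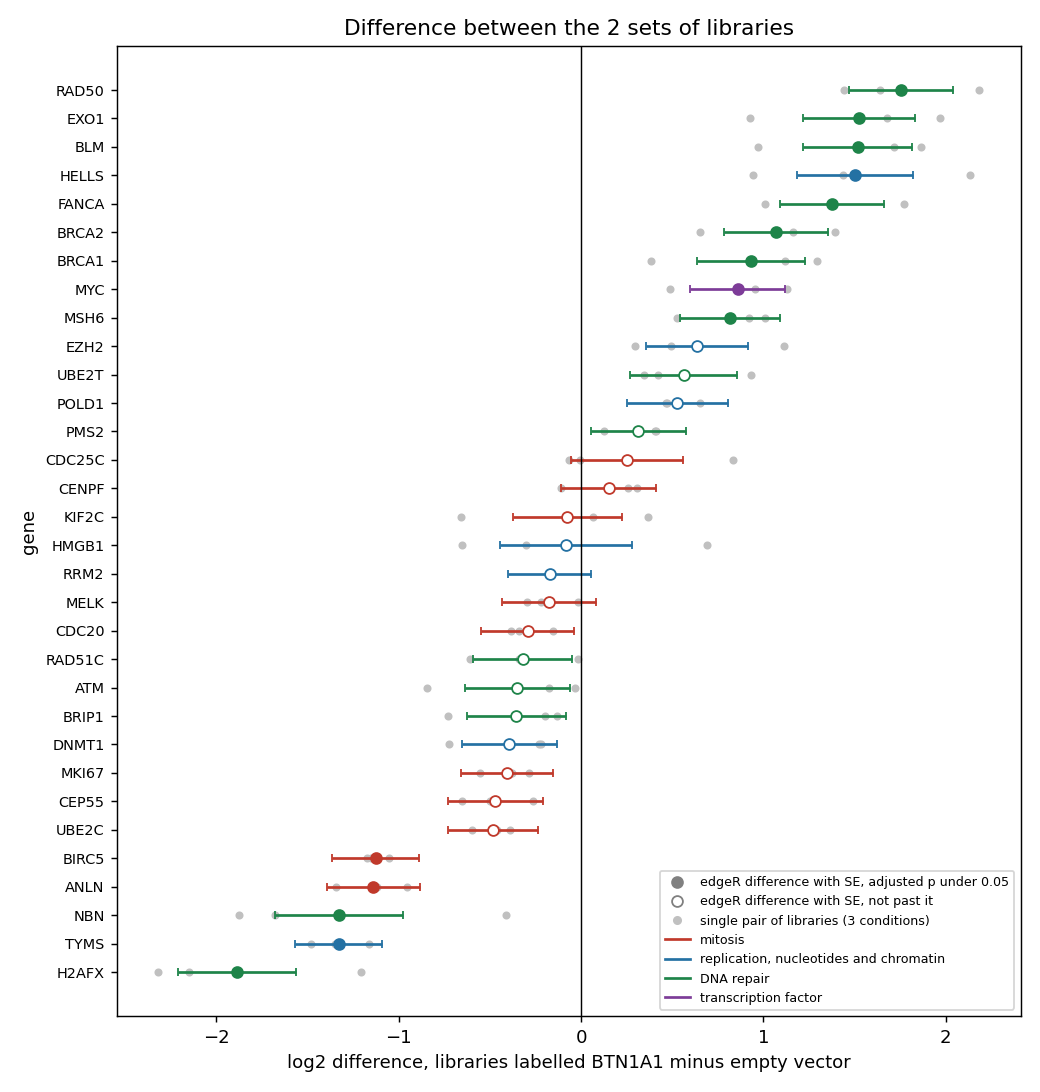
Log2 difference between the libraries labelled BTN1A1 and EV (horizontal axis) for the 32 members (vertical axis), as the edgeR estimate with its SE (filled where the adjusted p is under 0.05) and as the 3 single pairs of libraries (grey). RAD50, EXO1, BLM, HELLS and FANCA lie farthest right, H2AFX, TYMS and NBN farthest left, and 14 of the 32 are filled.

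Other genes of the same pathways on the panel were read beside the members. Of 15 other cell cycle genes 0 passed edgeR for the height at 24 h over both vectors. The highest were CCNB1, cyclin B1, at a log2 height of 0.69 (SE 0.26, unadjusted p = 0.0303 with edgeR) and CCNE1, cyclin E1, at 0.60 (SE 0.35), and the lowest were the CDK inhibitor CDKN2B at -1.17 (SE 0.56) and cyclin A1, CCNA1, at -0.73 (SE 0.46). Between the sets 5 of the 15 were higher in the libraries labelled BTN1A1 by edgeR, against 11.7% of all genes, and 2 lower, against 30.6%. At the ends were CCND2, cyclin D2, at 6.35 (SE 0.33, adjusted p = 1.8e-05 with edgeR) and CCND1, cyclin D1, at -2.81 (SE 0.26, adjusted p = 9.4e-05). Of 5 other repair genes 0 passed for the height at 24 h.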

How the data were processed

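Whole-number counts of barcodes per probe were used as the authors deposited them, 1 column per library and 0 columns of other samples, for total RNA hybridised to the PanCancer IO 360 panel per the labels' protocols. Software, control probes and any scaling before deposit are not given in the sources used here, and no background was subtracted. Libraries were grouped by their treatment label, 1 per group. Members and gene lists were chosen with earlier results of these data known. The genes named are all members, the ends of the lists of other cell cycle and repair genes, with some genes of these lists not reported here.

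Library factors came from the geometric mean of 20 housekeeping genes. A gene entered the tests when 2 or more libraries held at least 20 of its scaled counts. Quasi-likelihood fits of edgeR 4.0.16 were run in R 4.3.3 and their p-values adjusted after Benjamini and Hochberg, at 0.05. The 24 h height within a vector came from a model of vector by 24 h or not, and the other tests from vector plus condition. Each model left 2 residual degrees of freedom (common dispersion 0.189 and 0.102). Each SE is the absolute log2 difference over the square root of F and restates the test. Nothing says the libraries came from separate cultures. For comparisons without a test, values under 20 were raised to 20. DESeq2 1.42.0, limma 3.58.1, 4 other scalings, other filters and each library left out were the alternatives. Tests were tried on simulated data with 200 changed genes and every gene at the common dispersion of its model. Probe names were matched to RefSeq on GRCh38.p14.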

Additional observations from a re-analysis of the deposited data

How the results depend on the processing

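With 1 library per group, nothing below has a replicate, and counts limit only the lowest members. No result kept as a single member's difference changed sign under any alternative run. No paired analysis was possible because each group holds 1 library and the labels give no replicate numbers. A vector's own 24 h height could not be fitted without its 24 h library. The cause of the shifts below was not tested. For the tests below, the share of all genes past the threshold under each alternative is not given, so those counts describe the members only.

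With DESeq2 in place of edgeR, 1 member was past the threshold as higher at 24 h in EV, 2 were higher and 1 lower in the libraries labelled BTN1A1, 1 was higher over both vectors, 1 against untreated and 1 against 48 h. Between the sets the 5 lower members became 2 under TMM, 2 under DESeq2 size factors and 1 under column totals. The 24 h library was highest for 10 members in EV under column totals, and for 8 in the libraries labelled BTN1A1 when at least 1.2-fold was required.

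At 1.5-fold, each count stands with the share of all genes tested under the same scaling. In EV, 24 h against untreated gave 17 higher under TMM (22.9%), 18 under DESeq2 size factors (23.5%) and 1 under column totals (12%), with 4 lower under column totals (43.0%). The 24 h library against 48 h gave 7 higher under TMM (7.92%), 6 under DESeq2 size factors (7.62%), 7 under column totals (7.77%) and 6 with 17 housekeeping genes, without TFRC, TLK2 and ERCC3 (5.68%). The 48 h library against untreated gave 5 higher under TMM (21.1%), 5 under DESeq2 size factors (22.1%) and 1 under column totals (13.5%), with 17 lower under column totals (50.5%). In the libraries labelled BTN1A1, 24 h against 48 h gave 9 higher under TMM (9.42%) and 12 under DESeq2 size factors (12.6%), with 0 lower under TMM (10.0%), 0 under DESeq2 size factors (7.03%) and 1 under column totals (27.2%). At 2-fold, the 3 EV comparisons gave 1 higher each, EV 48 h against untreated 0 lower, and both 24 h comparisons labelled BTN1A1 0 lower.

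Leaving out 1 library at a time, between 0 and 2 members were higher at 24 h in EV, between 0 and 3 higher and 0 and 1 lower in the libraries labelled BTN1A1, and between 0 and 1 lower for the difference between vectors. Over both vectors between 0 and 1 were higher at 24 h, against untreated likewise, and at 48 h likewise. Between the sets the higher members ran from 2 to 8 and the lower from 2 to 5.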
